A study of Homo sapiens with 9 samples.

Results

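ES-2 cells, an established line derived from an ovarian cancer, were depleted of serum response factor (SRF) with siRNA and compared with cells given a control siRNA. The comparison comprised 3 libraries of cells transfected with the SRF-directed siRNA pool (siSRF) and 3 of control-transfected cells (siC), all harvested 72 h after transfection. Every gene whose mean over the 6 libraries reached 0.1 FPKM (fragments per unit of gene length and of sequencing depth) was taken as a member, which left 21857 of 58174 annotated genes, 12381 of them protein-coding. The study as a whole also depleted the RNA-binding protein IGF2BP1 in the same line and asked how SRF-dependent transcription contributes to tumor cell growth and invasion. One siRNA pool was used per target in a single cell line, so effects of the pool other than on SRF cannot be told apart from loss of SRF. The labels number the libraries of each group but do not say whether they came from separate cultures, so p-values measure the spread between these libraries.

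SRF is a transcription factor of the MADS-box family that binds a short A/T-rich element, the CArG box, as a dimer. It works with 2 kinds of co-factors. Myocardin-related transcription factors (MRTFs) are released from monomeric actin when actin filaments form and direct SRF to genes of the cytoskeleton and of cell adhesion, whereas ternary complex factors (TCFs) of the ETS family are phosphorylated by ERK and direct it to immediate early genes. In epithelial tumor cells, SRF is best known for its part in contractility, adhesion and migration.

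Gene counts summed to 6421764 reads in the shallowest and 9416175 in the deepest of the 6 libraries, and RN7SL2, an RNA of the signal recognition particle, took 4.52% to 5.38% of them. Of 12 markers listed for ES-2 cells, 9 passed the filter. The keratins KRT7, KRT18 and KRT8 and the mesenchymal markers VIM and CDH2 were present in every library, whereas the lineage factors PAX8 and WT1 did not exceed 0.262 FPKM and MUC16 was listed at 0 throughout. Of 11 markers of leukocytes, endothelium, erythrocytes, liver, muscle and nervous tissue, 7 were at 0 in all 6 libraries and only PECAM1 and CDH5 passed the filter. CDH5, an endothelial cadherin, was at 8.09, 10.6 and 9.49 FPKM in siC and 7.53, 8.45 and 7.81 FPKM in siSRF, and summed levels of the 11 markers ran from 8.56 to 11.1 FPKM in siC and from 7.7 to 8.67 FPKM in siSRF.

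The targeted mRNA was reduced. SRF (ENSG00000112658, chr6:43171269-43181506, plus strand, GRCh38 with GENCODE annotation) was at 13.6, 14.1 and 15.99 FPKM in siC and 1.63, 1.36 and 1.42 FPKM in siSRF. No siSRF library came near the lowest siC library, and the remaining level was 10.1% of the control (log2 fold change -3.22, standard error 0.11, limma adjusted p = 6.1e-05, on the scale of log2(FPKM + 0.1), which understates changes of low genes). The exact two-sided permutation test over the 6 libraries gave p = 0.1, the smallest that 3 against 3 allow. The RNA of whole cultures was measured, so fewer cells with an mRNA and less of it per cell cannot be told apart.

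Co-factor mRNAs were measured without a call in the main fit. The MRTF genes are listed as MKL1 and MKL2, and MKL2 was at 1.62, 1.46 and 1.64 FPKM in siC and 1.25, 0.986 and 1.21 FPKM in siSRF (log2 fold change -0.43, standard error 0.17, limma adjusted p = 0.133). The corresponding log2 fold change was -0.11 for MKL1 (adjusted p = 0.686, limma), 0.04 for ELK1 and 0.05 for ELK4. ELK3, the most abundant of the TCF mRNAs in these cells, was at 26.5, 23.9 and 23.5 FPKM in siC and 30.3, 29.8 and 29.97 FPKM in siSRF without overlap between the groups, but its adjusted p by limma was 0.0136 and missed the threshold of 0.01. With limma-voom, run on reads recovered from FPKM, MKL2 and ELK3 passed the threshold (adjusted p = 0.00224 and 0.00103). MKL1, ELK1 and ELK4 did not pass by it. Myocardin itself did not pass the filter.

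The SRF promoter contains the element that its own product binds. Promoter windows of RefSeq (GRCh38.p14), which run from 250 bases before to 50 bases after an annotated start, held a pair of CArG boxes for SRF. They are shown because SRF was the targeted gene and the boxes lie next to its start, with the box in capitals and 10 bases on each side.
SRF, box 1, chr6:43171229-43171258, plus strand: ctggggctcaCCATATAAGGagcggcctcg
SRF, box 2, chr6:43171249-43171278, plus strand: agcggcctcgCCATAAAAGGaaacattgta
Between box and start lie 20 bases for box 1 and 0 for box 2.

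Over all 21857 genes, SRF depletion lowered 1167 (5.34%) and raised 1498 (6.85%) with limma at a threshold of 0.01 on the adjusted p. The libraries of both groups did not overlap for any called gene, so this separation comes with the call. Where it is stated below for a called gene, it describes the values and is no added support. The share of genes without overlap among all genes tested is not given here. Among protein-coding genes the shares were higher, at 8.67% lower and 11.1% higher, and since the gene lists below consist mostly of protein-coding genes, these shares are the closer reference for them. Lower genes had a median log2 fold change of -0.73 and higher genes one of 0.59. A change of at least 2-fold was reached by 312 lower and 203 higher genes, and one of at least 8-fold by 24 and 28. Over all genes tested the median log2 fold change was 0.01. Fewer genes were called in every fit that left out 1 library, with 328 lower and 345 higher without siSRF replicate 2, against 576 and 939 without siC replicate 3. Such a fit also has fewer libraries to estimate the spread from. A call lost in it therefore does not by itself show dependence on the library left out. Named genes whose call ended in such a fit are given with their group.

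**Figure D1:**
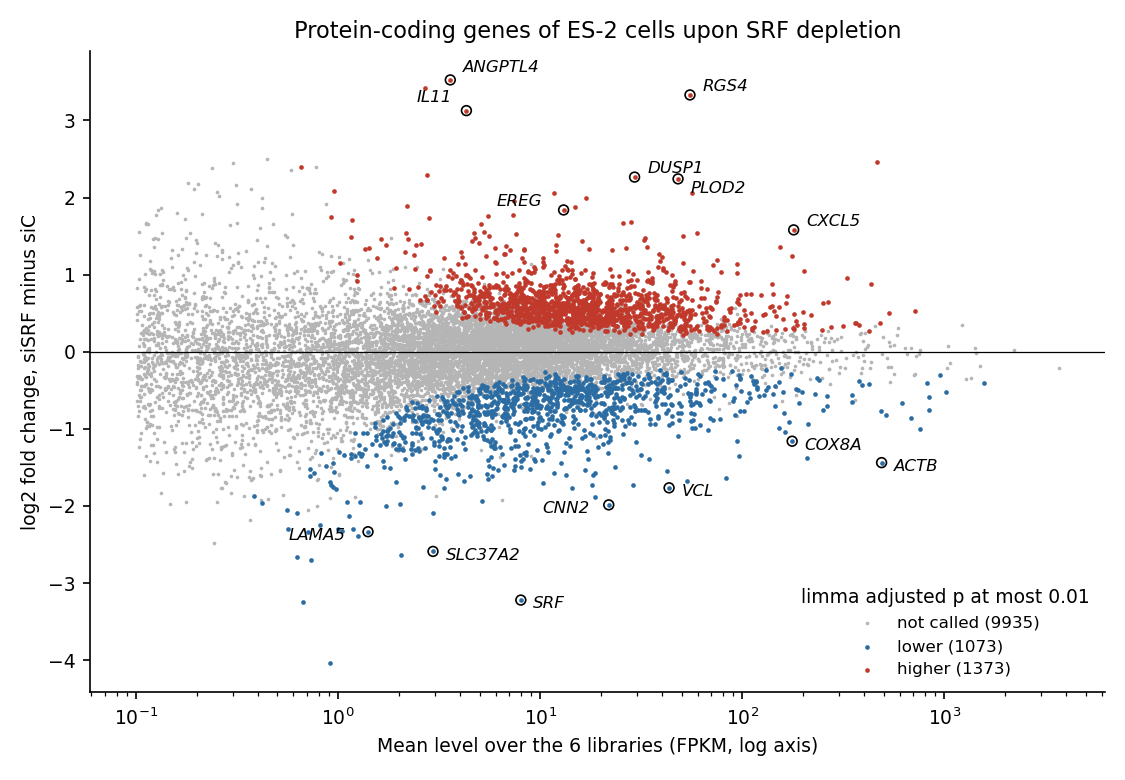
Log2 fold change (siSRF minus siC) of the 12381 protein-coding genes against their mean FPKM over the 6 libraries on a log axis, with 1073 lower genes in blue, 1373 higher genes in red and the others in grey. Among the genes labelled, SRF is lowest at -3.22 and ANGPTL4 highest at 3.53, and the histone gene HIST1H2BM lies below SRF.

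The direction of change varied with base composition. Lower genes had a median GC content of 54.2% in their longest transcript, against 41.7% in higher genes and 46.9% in all genes tested. In the quintile of protein-coding genes with the lowest GC content (29.2% to 40.2%), 2.39% were lower and 23.2% were higher. In the quintile with the highest GC content (57.4% to 76%), 16.8% were lower and 3.04% were higher. When trends along GC content and gene length were removed from each library, 1118 genes were lower and 1443 higher, of which 888 and 1092 were shared with the calls without it, and none was called in the opposite direction. The part of base composition in the calls was not tested beyond this, and genes named below whose call ended with the removal are given.

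**Figure D2:**
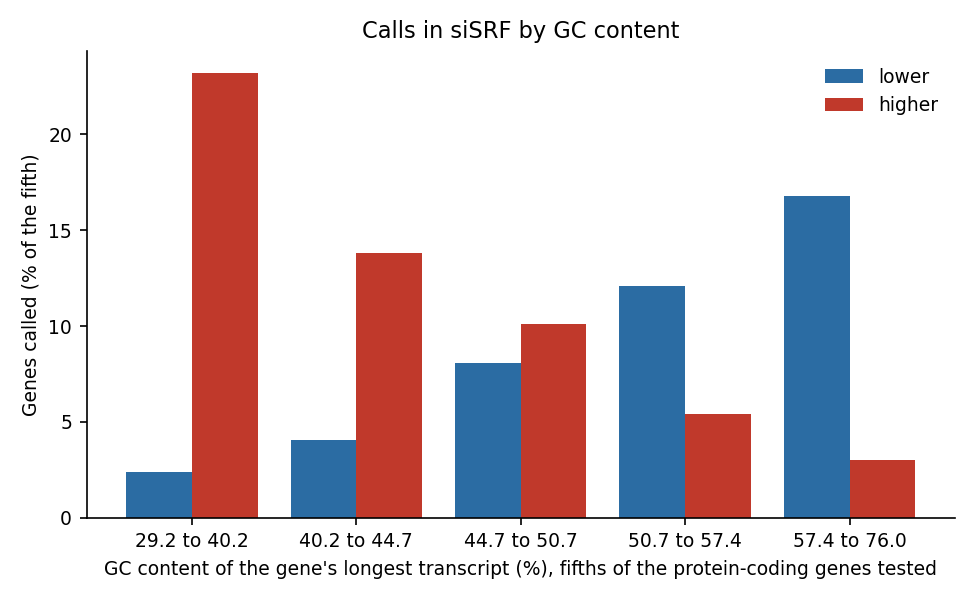
Share of protein-coding genes called lower (blue) or higher (red) in siSRF, in percent of each quintile of GC content of the longest transcript. Lower calls go from 2.39% to 16.8% and higher calls from 23.2% to 3.04% from the lowest to the highest quintile.

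VCL, which encodes the focal adhesion protein vinculin (ENSG00000035403, chr10:73995193-74121363, plus strand), was among the clearest decreases outside SRF itself. It was at 65.1, 67.1 and 68.97 FPKM in siC and 19.9, 20.3 and 18.8 FPKM in siSRF, about 29.3% of the control (log2 fold change -1.76, standard error 0.05, limma adjusted p = 3.6e-05). CNN2, the gene of the actin-binding calponin 2, fell further on the log2 scale, with 35.5, 35.6 and 33.5 FPKM in siC and 9.27, 8.88 and 8.07 FPKM in siSRF (log2 fold change -1.99, standard error 0.06, limma adjusted p = 6.1e-05). SLC37A2, a sugar-phosphate exchanger, showed the largest decrease after SRF among protein-coding genes that reached 5 FPKM in a group. Its levels were 4.83, 4.74 and 5.79 FPKM in siC and 0.88, 0.7404 and 0.681 FPKM in siSRF (log2 fold change -2.59, standard error 0.15, limma adjusted p = 0.00035). None of these 3 genes had overlapping groups. The other genes with the largest decreases at this level were NPC2 (log2 fold change -1.94), a sterol carrier of the lysosome, THEM6 (-1.89), IDH1 (-1.77), the cytosolic NADP-dependent isocitrate dehydrogenase, HGSNAT (-1.77), a lysosomal enzyme of heparan sulfate breakdown, H1FX (-1.73), a linker histone, and SRPRA (-1.73), the receptor subunit for the signal recognition particle. Among the called genes named here, the adjusted p rose above 0.01 without a single library, in at least 1 of 6 such fits, for NPC2.

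Increases were led by secreted factors and signalling regulators. ANGPTL4, an inhibitor of lipoprotein lipase, was low in siC, at 0.488, 0.593 and 0.39 FPKM in siC and 5.99, 6.23 and 7.81 FPKM in siSRF (log2 fold change 3.53, standard error 0.19, limma adjusted p = 0.00029). RGS4, which shortens signalling by G proteins, was at 10.1, 9.04 and 10.5 FPKM in siC and 102, 99.8 and 98.3 FPKM in siSRF (log2 fold change 3.33, standard error 0.06, limma adjusted p = 1.7e-05). DUSP1, a phosphatase of MAP kinases, was at 9.53, 9.99 and 10.5 FPKM in siC and 47.2, 49.2 and 49.2 FPKM in siSRF (log2 fold change 2.27, standard error 0.05, limma adjusted p = 3.6e-05). In each case the lowest siSRF library was several times the highest siC library. Further increases of this size class were IL11 (log2 fold change 3.13), a cytokine of the IL-6 family, PLOD2 (2.24), a collagen lysyl hydroxylase, MAP3K7CL (2.06), TNFRSF10D (2.06), a decoy receptor for TRAIL, SEMA3C (1.999), a secreted semaphorin, and BCL2A1 (1.95), an anti-apoptotic BCL2 relative. Among the largest called gains in FPKM were those of YBX1 (log2 fold change 0.53), an RNA-binding protein, G0S2 (0.88), an inhibitor of adipose lipase, SRGN (0.96), a proteoglycan core protein, and NPM1 (0.51), nucleophosmin. Leaving out single libraries ended the call in at least 1 of 6 fits for BCL2A1, YBX1 and NPM1. Removing GC content and gene length ended the call of NPM1.

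**Figure D3:**
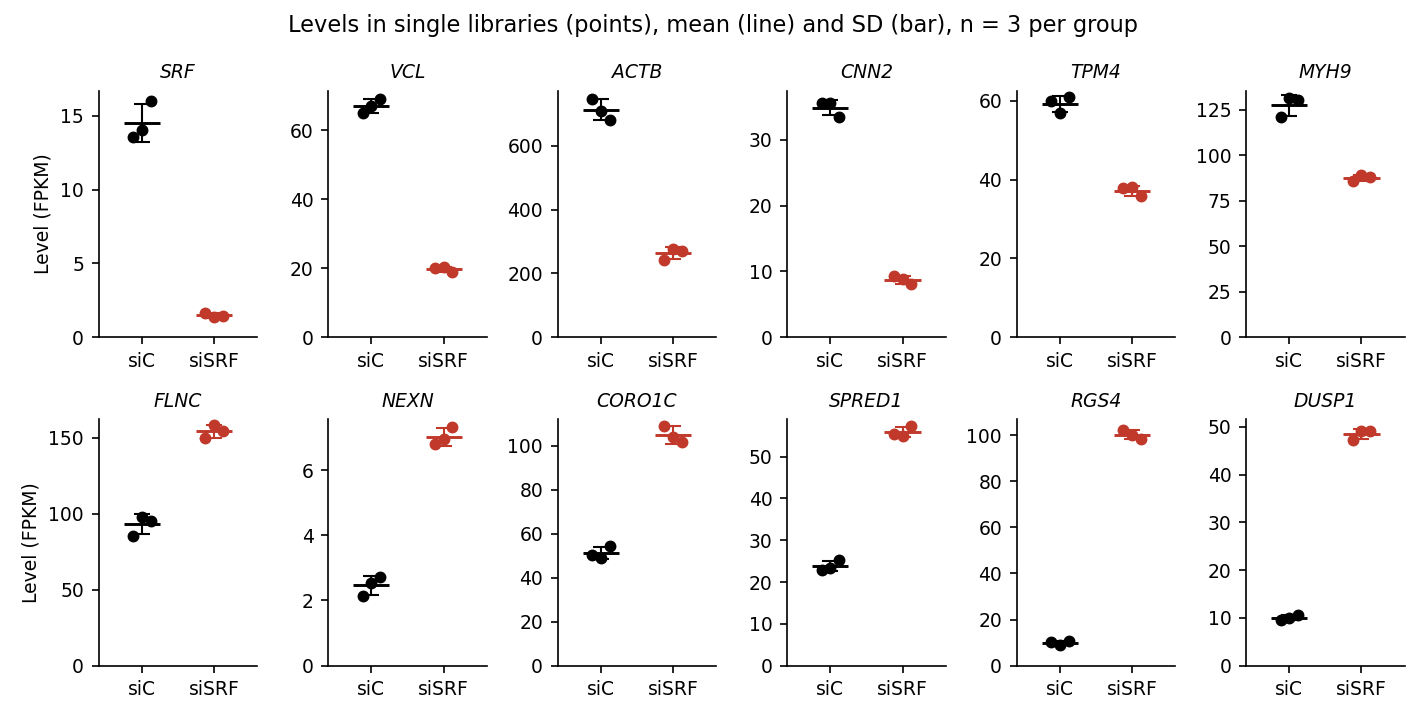
FPKM in each library for 12 genes, with the mean as a line and the SD as a bar (n = 3 per group), siC in black and siSRF in red, each axis starting at 0. SRF, VCL, ACTB, CNN2, TPM4 and MYH9 lie lower in siSRF, and FLNC, NEXN, CORO1C, SPRED1, RGS4 and DUSP1 lie higher, without overlap of the groups.

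Structural genes of the actin cytoskeleton that were called were all lower, although most members were not called. ACTB, which encodes cytoplasmic beta-actin, had the second largest loss in FPKM among the called genes, with 749, 709 and 683 FPKM in siC and 243, 276 and 271 FPKM in siSRF (log2 fold change -1.44, standard error 0.07, limma adjusted p = 0.00019). The gamma isoform ACTG1 was at 475, 509 and 329.6 FPKM in siC and 263, 291 and 286 FPKM in siSRF without overlap, but 1 siC library lay well below the other two and the adjusted p by limma was 0.0386. ACTA2, smooth muscle actin, never exceeded 0.458 FPKM, and the remaining isoforms did not pass the filter. Of the 10 calponins, transgelins, tropomyosins and caldesmon tested, 3 were lower, none was higher, and 7 were not called (median log2 fold change -0.03). The lower members were CNN2, TAGLN2 (log2 fold change -0.86) and TPM4 (-0.67), a tropomyosin of non-muscle cells that was at 59.9, 57.1 and 61.04 FPKM in siC and 37.8, 38.1 and 35.8 FPKM in siSRF. The smooth muscle gene TAGLN, a widely used SRF target, was barely detected, with 0.155, 0.225 and 0.0706 FPKM in siC and 0.179, 0.14 and 0.104 FPKM in siSRF, and was not called (-0.02), nor were TPM1 (-0.09), TPM3 (-0.05) and CALD1 (0.01).

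Of 18 genes of myosin II and contractility, 6 were lower and 2 higher (median -0.11). MYH9, the heavy chain of non-muscle myosin IIA, was at 121, 131 and 130.4 FPKM in siC and 85.7, 88.9 and 88.1 FPKM in siSRF (log2 fold change -0.54, standard error 0.05, limma adjusted p = 0.00079). Every siSRF value lay below every siC value. MYH10 (-0.77), the heavy chain of myosin IIB, MYLK (-0.47), the kinase of the myosin light chain, CIT (-0.64), a kinase of the cytokinetic ring, and RHOB (-0.71), a small GTPase, were lower as well on the log2 scale. In contrast, ROCK1 (0.62), a kinase that promotes contractility, and PPP1CB (0.42), the catalytic subunit of myosin phosphatase, were called higher. With 1 library left out, the counts were 3 to 5 lower and 0 to 1 higher for myosin II and contractility. The counts with GC content and gene length removed were 5 lower and 1 higher for myosin II and contractility. At least 1 of the 6 fits without a single library gave an adjusted p above 0.01 for MYH10, CIT, ROCK1 and PPP1CB. With GC content and gene length removed, ROCK1 and PPP1CB no longer passed.

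Focal adhesion and stress fibre genes comprised 40 tested members, of which 9 were lower, 5 higher and 26 not called (median -0.10). Next to VCL, the LIM and PDZ protein PDLIM4 had the largest decrease, with 13.6, 14.8 and 12.8 FPKM in siC and 5.49, 4.95 and 4.802 FPKM in siSRF (log2 fold change -1.42, standard error 0.08, limma adjusted p = 0.00034). Decreases were also called for TNS2 (log2 fold change -1.16), a tensin, PARVB (-1.13), which links integrin-linked kinase to actin, and CSRP1 (-1.03), a LIM protein of actin bundles. The largest increase was that of NEXN, an actin filament protein of the Z disc in muscle, with 2.15, 2.52 and 2.71 FPKM in siC and 6.79, 6.95 and 7.31 FPKM in siSRF (log2 fold change 1.48, standard error 0.11, limma adjusted p = 0.00052). The filamins diverged, since FLNC rose (log2 fold change 0.73, standard error 0.06, limma adjusted p = 0.00076), whereas FLNA (-0.76) was lower on the same log2 scale. ENAH (0.69), an anti-capping protein of the filament tip, and FERMT2 (0.45), kindlin 2, were higher. The alpha-actinins ACTN1 (0.06) and ACTN4 (-0.03), talin 1 (TLN1, -0.03) and zyxin (ZYX, -0.26) were not called. Counts in the fits without 1 library were 6 to 8 lower and 1 to 4 higher for focal adhesion and stress fibre proteins. Calls of TNS2, FLNC, ENAH and FERMT2 did not hold in all 6 fits that left out a single library. After removal of GC content and gene length no call remained for FERMT2.

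Of 56 regulators of actin turnover, 7 were lower (12.5%), 7 were higher (12.5%) and 42 were not called (median -0.02), shares close to those over protein-coding genes. CORO1C, a coronin that acts with the Arp2/3 complex, had the largest increase at 50.4, 48.9 and 54.4 FPKM in siC and 109, 104 and 102 FPKM in siSRF (log2 fold change 1.03, standard error 0.05, limma adjusted p = 0.00026). Both alpha subunits of capping protein rose, CAPZA1 to a log2 fold change of 0.75 and CAPZA2 to 0.74, while the beta subunit CAPZB (-0.41) fell. The cofilin family was divided too, as CFL2 (0.52) rose and destrin, encoded by DSTN, fell (-0.98). Twinfilin TWF1 (0.72) was higher, and the bundling protein FSCN1 (-0.52), the formin FHOD1 (-0.52) and thymosin beta 4 (TMSB4X, -0.39), which sequesters monomeric actin, were lower. Of 16 integrin subunits tested, 4 were lower and 1 higher. The beta chain ITGB2 (-0.80), ITGB5 (-0.65), ITGA5 (-0.38) of the fibronectin receptor and ITGA3 (-0.29) of the laminin receptor were lower on the log2 scale, and ITGAV (0.66) was higher. Leaving out 1 library gave 0 to 3 lower and 2 to 6 higher for actin dynamics regulators, 1 to 2 lower and 1 to 2 higher for integrin subunits. In 1 or more of the 6 fits without a library, the call was lost for CAPZA1, CAPZA2, CAPZB, CFL2, DSTN, FSCN1, FHOD1, TMSB4X, ITGB2, ITGA5 and ITGA3. Removing GC content and gene length ended the call of FHOD1, ITGA5 and ITGA3.

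Promoter windows could be assigned to 11332 of the 21857 genes (51.8%), by RefSeq symbol or synonym on the same chromosome. An exact CArG box, searched on both strands, was held by 21 of 886 lower genes (2.37%), 8 of 1160 higher genes (0.69%) and 144 of 9286 genes not called (1.55%), against 1.6% of the 27305 genes of the reference table. Among genes of at least 2-fold change the counts were 8 of 203 lower (3.94%) and 1 of 109 higher (0.917%). Both counts of lower genes with a box include SRF, which was lower because the siRNA targeted it. Within the lists of actin isoforms, calponins and tropomyosins, contractility, focal adhesion, actin dynamics and integrins together, 5 of 26 lower genes (19.2%), none of 14 higher genes and 9 of 88 genes not called (10.2%) held a box. With 1 mismatch allowed in the A/T stretch, the shares were 10.4% of lower, 9.48% of higher and 9.43% of other genes, and within the cytoskeletal lists 23.1% of lower, 7.14% of higher and 23.9% of genes not called. An ETS core (GGAA or TTCC) within 20 bases of the box, outside it, was present in 6 of those 21 lower genes and in 3 of those 8 higher ones. These are matches of letters and say nothing on occupancy by SRF.

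Boxes of the 5 lower cytoskeletal genes and of RND3, a called higher gene with a box, are shown for comparison, with the box in capitals and all windows read on the strand of the gene (GRCh38.p14).
CNN2, chr19:1026509-1026538, plus strand: cgcctccaggCCTTATAAGGacatttgcgc
FLNA, chrX:154374709-154374738, minus strand: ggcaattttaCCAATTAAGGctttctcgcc
TPM4, chr19:16067355-16067384, plus strand: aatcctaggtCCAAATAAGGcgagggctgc
SVIL, chr10:29634985-29635014, minus strand: cgagttcaggCCATAAAAGGcccgtcccat
MYLK, chr3:123620623-123620652, minus strand: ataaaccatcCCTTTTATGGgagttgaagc
RND3, chr2:150487748-150487777, minus strand: ctcccaggctCCATAAAAGGggaggaggca
Between 23 bases (SVIL) and 163 bases (TPM4) lie between these boxes and an annotated start. In the same order the log2 fold changes were -1.99, -0.76, -0.67, -0.53, -0.47 and 0.90. SVIL encodes supervillin, a filament-binding membrane protein, and RND3 a small GTP-binding protein that opposes ROCK1. The call of SVIL was lost in at least 1 of 6 fits without a single library. The box of SVIL and that of RND3 have the same 10 letters as box 2 of SRF.

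Of 24 immediate early genes, the class served by TCFs, none was called lower and 8 were higher (median 0.30, 0.38 with GC content and length removed). IER5 was at 11.8, 12.5 and 12.6 FPKM in siC and 22.3, 22.4 and 23.2 FPKM in siSRF (log2 fold change 0.88, standard error 0.05, limma adjusted p = 0.00031), and JUN, an AP-1 subunit, at 42.1, 48.4 and 44.6 FPKM in siC and 79.2, 78.1 and 81.99 FPKM in siSRF (log2 fold change 0.83, standard error 0.06, limma adjusted p = 0.00051). The groups were clearly apart for both. TRIB1 (0.61), JUNB (0.61), PHLDA1 (0.58), FOSL2 (0.48), KLF6 (0.40) and MYC (0.38) were higher on the log2 scale. The classical SRF targets FOS and EGR1 were below 1 FPKM on average in both groups, with log2 fold changes of 0.37 (limma adjusted p = 0.592) and 0.05 (limma adjusted p = 0.9). FOSL1, a far more abundant AP-1 subunit, was at 153, 153 and 169 FPKM in siC and 149, 163 and 163 FPKM in siSRF with overlapping groups (log2 fold change 0.00, standard error 0.06, limma adjusted p = 0.998). The fits that each lacked 1 library gave 3 to 8 higher for immediate early genes. Among the called genes named here, the adjusted p rose above 0.01 without a single library, in at least 1 of 6 such fits, for TRIB1, JUNB, PHLDA1, FOSL2 and MYC.

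Of 22 genes on a list for feedback of the ERK pathway, 6 were called higher, none was called lower and 16 were not called (median 0.24). DUSP1, described above, was the second largest increase among them (2.27). SPRED1, an inhibitor of RAS activation, was at 22.98, 23.3 and 25.2 FPKM in siC and 55.5, 54.9 and 57.3 FPKM in siSRF (log2 fold change 1.23, standard error 0.05, limma adjusted p = 9.6e-05), so every siSRF library held more than double the highest siC library. EPHA4 (0.72), a receptor for ephrins, SPRY2 (0.32), a Sprouty inhibitor, PHLDA1 and IL11 were the other called members. IL11 and PHLDA1 also count in other lists. IL11 and EPHA4 encode a cytokine and a receptor, not inhibitors of the pathway. Among 35 growth factor ligands and receptors, 4 were lower and 8 higher. The ligands FGF1 (2.29), EREG (1.84), FGF5 (1.45), HBEGF (0.70) and FGF2 (0.61) rose on the log2 scale. EREG, the EGF receptor ligand epiregulin, was at 5.67, 5.77 and 5.47 FPKM in siC and 21.8, 19.3 and 20.3 FPKM in siSRF (log2 fold change 1.84, standard error 0.06, limma adjusted p = 6.1e-05). VEGFA (-0.78), an angiogenic factor, IGFBP7 (-0.93), NRG1 (-0.48) and the receptor FGFR1 (-0.43) were lower. Fits lacking any 1 library called 3 to 6 higher for ERK feedback genes, 0 to 2 lower and 5 to 6 higher for growth factor ligands and receptors. Leaving out single libraries ended the call in at least 1 of 6 fits for EPHA4, SPRY2, FGF2, VEGFA, IGFBP7, NRG1 and FGFR1. With GC content and gene length removed, FGF2 and IGFBP7 no longer passed.

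Genes known as targets of YAP and TEAD, a pathway that also responds to actin, counted 2 lower and 7 higher of 22 (median 0.06). CCDC80, a matrix protein, was at 2.21, 2.45 and 2.21 FPKM in siC and 6.04, 5.82 and 5.45 FPKM in siSRF (log2 fold change 1.29, standard error 0.09, limma adjusted p = 0.00051). CTGF, a matricellular protein, was at 43.4, 56.1 and 36.2 FPKM in siC and 94.97, 90.8 and 107 FPKM in siSRF (log2 fold change 1.13, standard error 0.16, limma adjusted p = 0.00429). Both were raised in every siSRF library. The stress gene GADD45A (1.08), the kinase NUAK2 (1.08) and tissue factor (F3, 1.21) rose, and the receptor tyrosine kinase AXL (-0.37) and the ferlin MYOF (-0.44) fell. RND3, which holds the box shown above, was at 36.6, 36.4 and 40.2 FPKM in siC and 72.2, 70.4 and 69.2 FPKM in siSRF (log2 fold change 0.90, standard error 0.05, limma adjusted p = 0.00033). Counts in the fits without 1 library were 0 to 1 lower and 2 to 5 higher for YAP and TEAD targets. At least 1 of the 6 fits without a single library gave an adjusted p above 0.01 for CTGF, NUAK2, F3, AXL and MYOF. After removal of GC content and gene length no call remained for F3.

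Extracellular matrix genes showed large single changes in both directions. In the collagen, laminin and fibronectin lists more genes were called lower than higher, while list medians ran from -0.12 to 0.04. Of 19 collagens, 4 were lower and 1 higher (median 0.04, 0.25 with GC content and length removed). COL12A1, a collagen on the fibril surface, rose with 37.1, 37.2 and 37.5 FPKM in siC and 75.2, 77.6 and 78.8 FPKM in siSRF (log2 fold change 1.05, standard error 0.04, limma adjusted p = 6.1e-05), while COL13A1, a membrane collagen of adhesions, fell with 14.7, 16.4 and 14.8 FPKM in siC and 7.54, 6.66 and 7.53 FPKM in siSRF (log2 fold change -1.07, standard error 0.08, limma adjusted p = 0.00052). The groups did not overlap for either. COL5A1 (-1.11), COL5A2 (-0.73) and COL18A1 (-0.66) were lower too. Among 12 laminins and basement membrane genes, 4 were lower and 1 higher. The laminin chain LAMA5 dropped most, with 2.17, 2.69 and 2.37 FPKM in siC and 0.402, 0.361 and 0.427 FPKM in siSRF (log2 fold change -2.33, standard error 0.19, limma adjusted p = 0.00073). LAMA3 (-1.34), nidogen (NID1, -1.49) and agrin (AGRN, -0.85) were lower, and the abundant chain LAMB1 (0.31) was higher. Leaving out 1 library gave 1 to 3 lower and 1 higher for collagens, 1 to 2 lower and 0 to 2 higher for laminins and basement membrane. The counts with GC content and gene length removed were 3 lower and 4 higher for collagens, 4 lower and 3 higher for laminins and basement membrane. Calls of COL5A1, COL5A2, COL18A1, LAMA3, NID1, AGRN and LAMB1 did not hold in all 6 fits that left out a single library. Removing GC content and gene length ended the call of COL18A1.

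Of 21 fibronectin, fibrillin and matricellular genes, 6 were lower and 2 higher. FN1, fibronectin, was at 8.22, 8.69 and 7.83 FPKM in siC and 3.29, 3.11 and 3.03 FPKM in siSRF (log2 fold change -1.36, standard error 0.08, limma adjusted p = 0.00033). The lysyl oxidases, which cross-link collagen, moved apart, as LOX was at 106, 99.7 and 108 FPKM in siC and 252, 243 and 243 FPKM in siSRF (log2 fold change 1.24, standard error 0.04, limma adjusted p = 6.7e-05) and LOXL1 at 11.2, 12.4 and 10.6 FPKM in siC and 4.05, 5.04 and 4.29 FPKM in siSRF (log2 fold change -1.34, standard error 0.11, limma adjusted p = 0.00068). LOX thus more than doubled in every siSRF library and LOXL1 fell below every control. The protease FAP (-1.78) and the matrix proteins TGFBI (-1.32) and SPARC (-0.67) were lower, and the matrilin MATN2 (1.74) was higher from a low level. Of 10 matrix metalloproteinases and inhibitors, MMP2 (-1.06) and the inhibitor TIMP3 (-1.07) fell and MMP3 (1.27) and the membrane-bound MMP14 (0.36) rose, the other 6 not being called. The fits that each lacked 1 library gave 3 to 4 lower and 1 higher for fibronectin and matricellular genes. In 1 or more of the 6 fits without a library, the call was lost for FAP, SPARC, MATN2, MMP2 and MMP14.

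Plasminogen activation had 9 tested genes, of which 2 were lower and 3 higher. SERPINE2, protease nexin 1, fell with 2.3, 2.499 and 1.74 FPKM in siC and 0.284, 0.345 and 0.366 FPKM in siSRF (log2 fold change -2.39, standard error 0.23, limma adjusted p = 0.0012). The tissue-type activator PLAT was at 94.2, 98.04 and 103 FPKM in siC and 184, 185 and 174 FPKM in siSRF (log2 fold change 0.88, standard error 0.05, limma adjusted p = 0.00033), and the urokinase receptor PLAUR at 24.2, 23.6 and 24.6 FPKM in siC and 42.6, 45.5 and 47.9 FPKM in siSRF (log2 fold change 0.90, standard error 0.05, limma adjusted p = 0.00034). S100A10, a receptor component for plasminogen, was lower (-0.77). Of 15 epithelial and mesenchymal markers, 3 were lower and 2 higher. The transcription factors TWIST1 (-0.67) and TWIST2 (-0.67) and vimentin (VIM, -0.31) were lower on the log2 scale. The keratin KRT18 of simple epithelia was at 42.6, 45.7 and 41.8 FPKM in siC and 77.9, 82.4 and 84.7 FPKM in siSRF (log2 fold change 0.91, standard error 0.05, limma adjusted p = 0.00033), and KRT7 rose less (0.33). CDH2, N-cadherin, was not called (0.23). With 1 library left out, the counts were 0 to 1 lower and 3 higher for plasminogen activation, 0 to 1 lower and 1 to 2 higher for epithelial and mesenchymal markers. The calls of SERPINE2, S100A10, TWIST1, TWIST2, VIM and KRT7 were lost in at least 1 of 6 fits without a single library. With GC content and gene length removed, TWIST1 no longer passed.

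**Figure D4:**
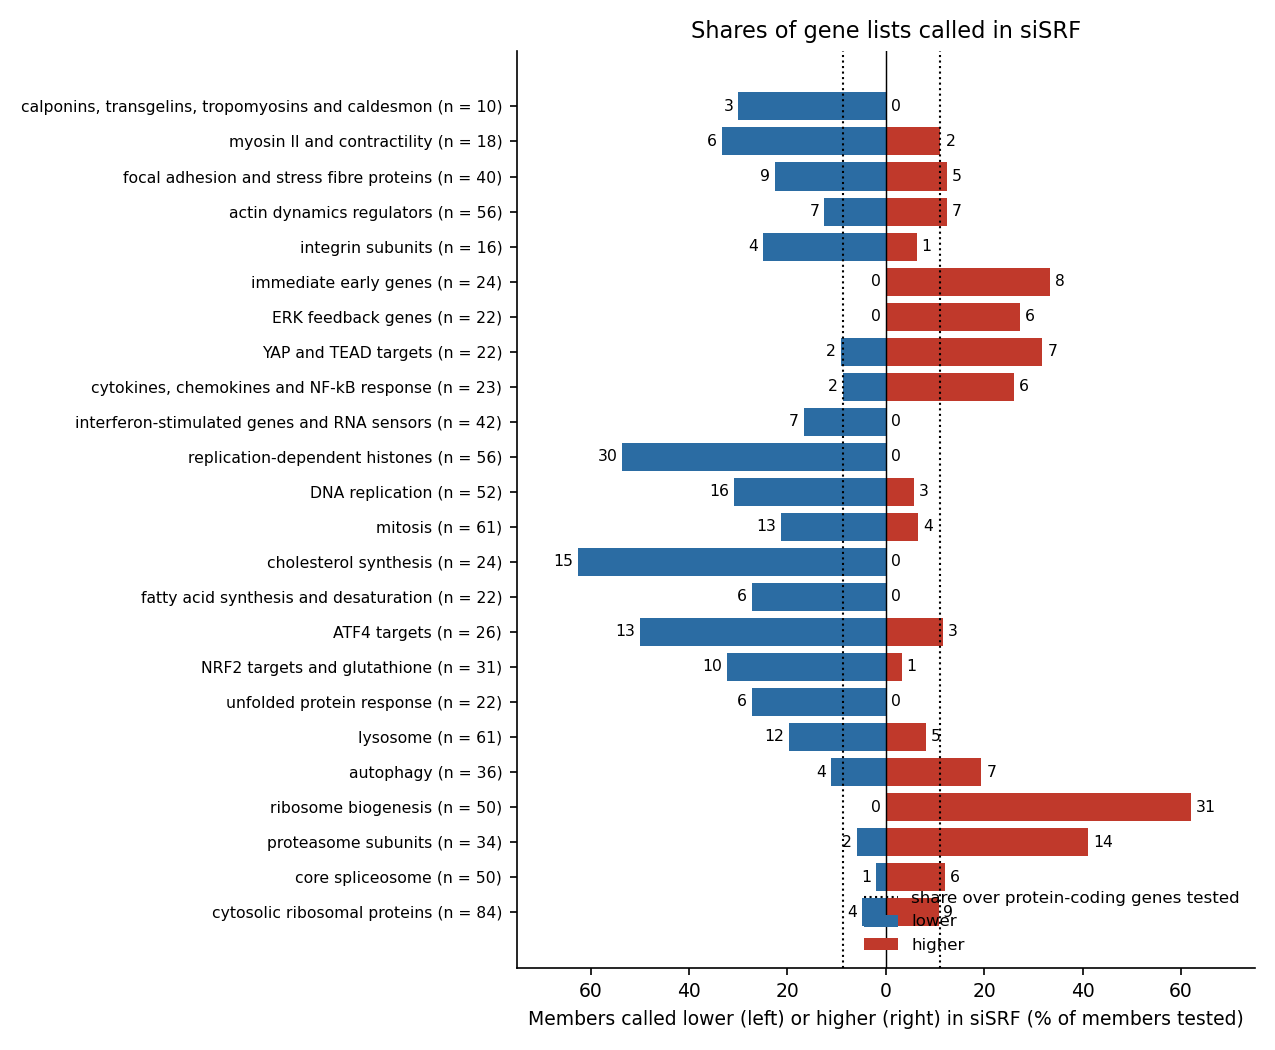
Members called lower (left, blue) or higher (right, red) in siSRF as a percentage of the members tested in each of 24 lists, with the number tested beside each list name. Dotted lines mark the shares over protein-coding genes, 8.67% lower and 11.1% higher. Cholesterol synthesis and histones extend farthest to the left and ribosome biogenesis to the right.

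Replication-dependent histones, whose mRNAs accumulate in S phase and carry no poly(A) tail, included no called increase. Of 56 tested, 30 were lower, none was higher, and the median log2 fold change was -0.55 (-0.44 with GC content and length removed). HIST1H1C, the linker histone H1.2, had the largest loss in FPKM of all called genes, at 956, 1103 and 964 FPKM in siC and 492, 511 and 507 FPKM in siSRF (log2 fold change -0.998, standard error 0.07, limma adjusted p = 0.00051). HIST1H1D was at 123, 132 and 122 FPKM in siC and 34.7, 41.7 and 45.6 FPKM in siSRF (log2 fold change -1.63, standard error 0.10, limma adjusted p = 0.0004). The H2B genes HIST1H2BK (-1.38), HIST1H2BH (-1.16) and HIST1H2BE (-1.22), the linker histone HIST1H1E (-0.85) and the abundant HIST1H3F (-0.75) and HIST1H4K (-0.40) were lower too. HIST1H2BM, which fell furthest of the histones named here, had log2 fold changes of -4.54 to -3.54 in the fits without 1 library. Histone genes are near-identical copies, so reads may be shared among them and single members are uncertain. Counts in the fits without 1 library were 6 to 21 lower for histones. Among the called genes named here, the adjusted p rose above 0.01 without a single library, in at least 1 of 6 such fits, for HIST1H2BM, HIST1H2BK, HIST1H2BE, HIST1H1E, HIST1H3F and HIST1H4K. After removal of GC content and gene length no call remained for HIST1H4K.

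Genes of the cell cycle leaned in the same direction. Of 52 DNA replication genes, 16 were lower and 3 higher (median -0.17). MCM6, a subunit of the replicative helicase, was at 19.8, 23.4 and 25.2 FPKM in siC and 12.97, 13.6 and 12.6 FPKM in siSRF (log2 fold change -0.79, standard error 0.10, limma adjusted p = 0.00244), and CDT1, a licensing factor, at 19.4, 21.1 and 19.6 FPKM in siC and 12.4, 12.7 and 12.5 FPKM in siSRF (log2 fold change -0.67, standard error 0.05, limma adjusted p = 0.00056). The ligase LIG1 (-0.73), thymidine kinase (TK1, -0.68) and the origin subunit ORC1 (-0.57) were lower, while ORC4 (0.48), ORC5 (0.50) and the primase subunit PRIM2 (0.54) were higher. Of 61 mitosis genes, 13 were lower and 4 higher (median -0.19, -0.28 with GC content and length removed). MKI67, the Ki-67 antigen, was the largest decrease among them (-1.19). CKAP2L was at 11.2, 10.7 and 10.8 FPKM in siC and 6.096, 6.03 and 6.86 FPKM in siSRF (log2 fold change -0.77, standard error 0.07, limma adjusted p = 0.00102), and the kinase AURKB (-0.65), its partner INCENP (-0.61), the ubiquitin-conjugating enzyme UBE2C (-0.70) and the kinesin KIF20A (-0.61) fell as well. BUB3 (0.59), NUF2 (0.43), CKS1B (0.36) and ECT2 (0.59) were higher. Leaving out 1 library gave 1 to 11 lower and 0 to 1 higher for DNA replication, 5 to 10 lower and 1 to 4 higher for mitosis. The counts with GC content and gene length removed were 11 lower and 1 higher for DNA replication, 21 lower and 3 higher for mitosis. Leaving out single libraries ended the call in at least 1 of 6 fits for MCM6, LIG1, TK1, ORC1, ORC4, ORC5, PRIM2, MKI67, AURKB, UBE2C, KIF20A, NUF2, CKS1B and ECT2. Removing GC content and gene length ended the call of ORC1, ORC4, PRIM2, AURKB and NUF2.

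Among 28 genes of G1 control, 6 were lower and 3 higher (median -0.22). The E2F partner TFDP1 was at 41.3, 39.7 and 41.2 FPKM in siC and 25.1, 24.2 and 23.1 FPKM in siSRF (log2 fold change -0.75, standard error 0.05, limma adjusted p = 0.00039). The activators E2F1 (-0.43) and E2F2 (-1.26), the late repressor E2F8 (-0.91) and the inhibitor CDKN2D (-0.89) were lower on the log2 scale, whereas the kinase CDK6 was at 24.8, 23.8 and 24.3 FPKM in siC and 38.1, 36.7 and 37.9 FPKM in siSRF (log2 fold change 0.63, standard error 0.04, limma adjusted p = 0.00039) and CDK4 (0.27) and E2F6 (0.80) were higher. Of 14 BCL2 family genes, the pro-survival BCL2A1 was at 3.76, 2.84 and 2.41 FPKM in siC and 12.4, 11.4 and 11.5 FPKM in siSRF (log2 fold change 1.95, standard error 0.16, limma adjusted p = 0.00073), the pro-apoptotic PMAIP1 (0.80) was higher and BOK (-1.23) was lower. The fits that each lacked 1 library gave 1 to 3 lower and 1 to 3 higher for G1 control. Removal of GC content and gene length gave 7 lower and 5 higher for G1 control. At least 1 of the 6 fits without a single library gave an adjusted p above 0.01 for E2F1, E2F2, E2F8, CDKN2D, CDK4, E2F6, BCL2A1 and BOK. With GC content and gene length removed, E2F1, E2F2 and CDKN2D no longer passed.

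Cholesterol synthesis genes were called in 1 direction. Of 24 tested genes, 15 were lower and none was higher, and the median log2 fold change of -0.66 stayed between -0.71 and -0.55 over the alternatives run. Lower genes stood along the whole route from the mevalonate pathway to the last steps. In the early part, HMGCS1, the synthase of HMG-CoA, was at 7.31, 6.04 and 8.85 FPKM in siC and 3.28, 3.97 and 3.66 FPKM in siSRF (log2 fold change -0.99, standard error 0.15, limma adjusted p = 0.00586), and MVK (-1.05), MVD (-0.84), IDI1 (-0.83) and FDPS (-0.35) were lower. In the sterol part, FDFT1 (-0.70), SQLE (-0.54), LSS (-0.82) and EBP (-0.73) were lower, as was DHCR7 with a level of 312, 334 and 332 FPKM in siC and 206, 206 and 189.7 FPKM in siSRF (log2 fold change -0.70, standard error 0.05, limma adjusted p = 0.00059). The sterol sensor INSIG1, itself a target of the pathway, was at 25.2, 27.7 and 26.8 FPKM in siC and 14.2, 14.7 and 15.5 FPKM in siSRF (log2 fold change -0.84, standard error 0.06, limma adjusted p = 0.00047), and the factor SREBF2 (-0.65) was lower. Fits lacking any 1 library called 7 to 11 lower for cholesterol synthesis. Calls of HMGCS1, MVK, MVD, IDI1, FDPS, SQLE, EBP and SREBF2 did not hold in all 6 fits that left out a single library.

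Of 22 genes of fatty acid synthesis and desaturation, 6 were lower and none was higher (median -0.27). The factor SREBF1 was at 13.3, 14.3 and 12.9 FPKM in siC and 6.65, 6.23 and 7.13 FPKM in siSRF (log2 fold change -1.01, standard error 0.07, limma adjusted p = 0.00055) and the desaturase FADS2 at 5.7, 6.23 and 6.68 FPKM in siC and 2.81, 3.01 and 2.79 FPKM in siSRF (log2 fold change -1.08, standard error 0.09, limma adjusted p = 0.00083). Fatty acid synthase (FASN, -0.61), the stearoyl-CoA desaturase SCD (-0.71) and the acetyl-CoA synthetase ACSS2 (-0.63) were lower too. Glycolysis and hypoxia genes were balanced, with 6 lower and 6 higher of 34. PFKL, the liver type of phosphofructokinase, was at 15.5, 16.04 and 15.3 FPKM in siC and 6.01, 6.06 and 6.73 FPKM in siSRF (log2 fold change -1.31, standard error 0.06, limma adjusted p = 0.00021), and ENO2 (-0.93), NDRG1 (-0.77) and the glucose transporter SLC2A1 (-0.48) fell. Hexokinase 2 (HK2, 0.68), HIF1A (0.67), its hydroxylase EGLN1 (0.81) and the mitophagy receptors BNIP3 (0.68) and BNIP3L (0.77) rose. Counts in the fits without 1 library were 2 to 4 lower for fatty acid synthesis and desaturation, 3 to 6 lower and 4 to 5 higher for glycolysis and hypoxia response. In 1 or more of the 6 fits without a library, the call was lost for FASN, SCD, ACSS2, NDRG1 and EGLN1.

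Targets of ATF4, the factor of amino acid shortage, counted 13 of 26 lower and 3 higher (median -0.56). The serine synthesis enzyme PHGDH was at 48.01, 54.1 and 48.2 FPKM in siC and 16.6, 20.9 and 19.6 FPKM in siSRF (log2 fold change -1.40, standard error 0.10, limma adjusted p = 0.00049), and asparagine synthetase, ASNS, at 13.1, 11.6 and 12.1 FPKM in siC and 4.31, 5.49 and 4.57 FPKM in siSRF (log2 fold change -1.35, standard error 0.11, limma adjusted p = 0.00066). PSAT1 (-0.99), the cystine transporter SLC7A11 (-0.94), the glutathione-degrading CHAC1 (-1.32) and SESN2 (-0.77) were lower as well. The 3 higher members were ATF5 (1.04), the factor DDIT3 (0.84) and the phosphatase subunit PPP1R15A (0.73), which is known to restore translation after stress. ATF4 itself was not called (-0.17). Of 20 aminoacyl-tRNA synthetases, 7 were lower and 5 higher. AARS was at 60.9, 65.7 and 63.1 FPKM in siC and 33.5, 34.3 and 34.7 FPKM in siSRF (log2 fold change -0.89, standard error 0.04, limma adjusted p = 0.00019), and QARS (-0.73), CARS (-0.64), WARS (-0.59) and YARS (-0.58) were lower, whereas RARS (0.54), KARS (0.52), HARS (0.47), FARSB (0.41) and DARS (0.34) were higher. Leaving out 1 library gave 5 to 9 lower and 2 to 3 higher for ATF4 targets, 2 to 5 lower and 0 to 2 higher for aminoacyl-tRNA synthetases. The calls of PSAT1, CHAC1, SESN2, DDIT3, QARS, CARS, WARS, YARS, RARS, KARS, HARS, FARSB and DARS were lost in at least 1 of 6 fits without a single library. After removal of GC content and gene length no call remained for SESN2, CARS, FARSB and DARS.

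Of 22 genes of the unfolded protein response, 6 were lower and none was higher (median -0.22). HYOU1, a chaperone of the endoplasmic reticulum, was at 27.7, 30.9 and 32.4 FPKM in siC and 16.05, 15.8 and 16.1 FPKM in siSRF (log2 fold change -0.92, standard error 0.06, limma adjusted p = 0.0005), and XBP1 (-0.81), HERPUD1 (-0.81), DERL1 (-0.45) and the abundant chaperone HSPA5 (-0.24) were lower. Among 31 NRF2 targets and glutathione genes, 10 were lower and 1 higher (median -0.26). AKR1C3, an aldo-keto reductase, was at 13.2, 13.7 and 13.9 FPKM in siC and 5.32, 4.79 and 5.24 FPKM in siSRF (log2 fold change -1.39, standard error 0.06, limma adjusted p = 0.00019). The pentose phosphate enzyme TALDO1 (-1.09) and the transferase GSTP1 (-0.89) fell and thioredoxin reductase (TXNRD1, 0.63) rose. Of 17 cytosolic heat shock genes, DNAJB4 was at 3.68, 3.696 and 4.203 FPKM in siC and 11.6, 11.02 and 11.2 FPKM in siSRF (log2 fold change 1.53, standard error 0.08, limma adjusted p = 0.00022) and BAG3 (-0.48) was lower, with the other 15 not called. The fits that each lacked 1 library gave 1 to 2 lower for unfolded protein response, 5 to 9 lower and 0 to 1 higher for NRF2 targets and glutathione. Removal of GC content and gene length gave 11 lower and 3 higher for NRF2 targets and glutathione, 0 lower and 4 higher for cytosolic heat shock proteins. Among the called genes named here, the adjusted p rose above 0.01 without a single library, in at least 1 of 6 such fits, for XBP1, HERPUD1, DERL1, HSPA5, GSTP1, TXNRD1 and BAG3. Removing GC content and gene length ended the call of BAG3.

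**Figure D5:**
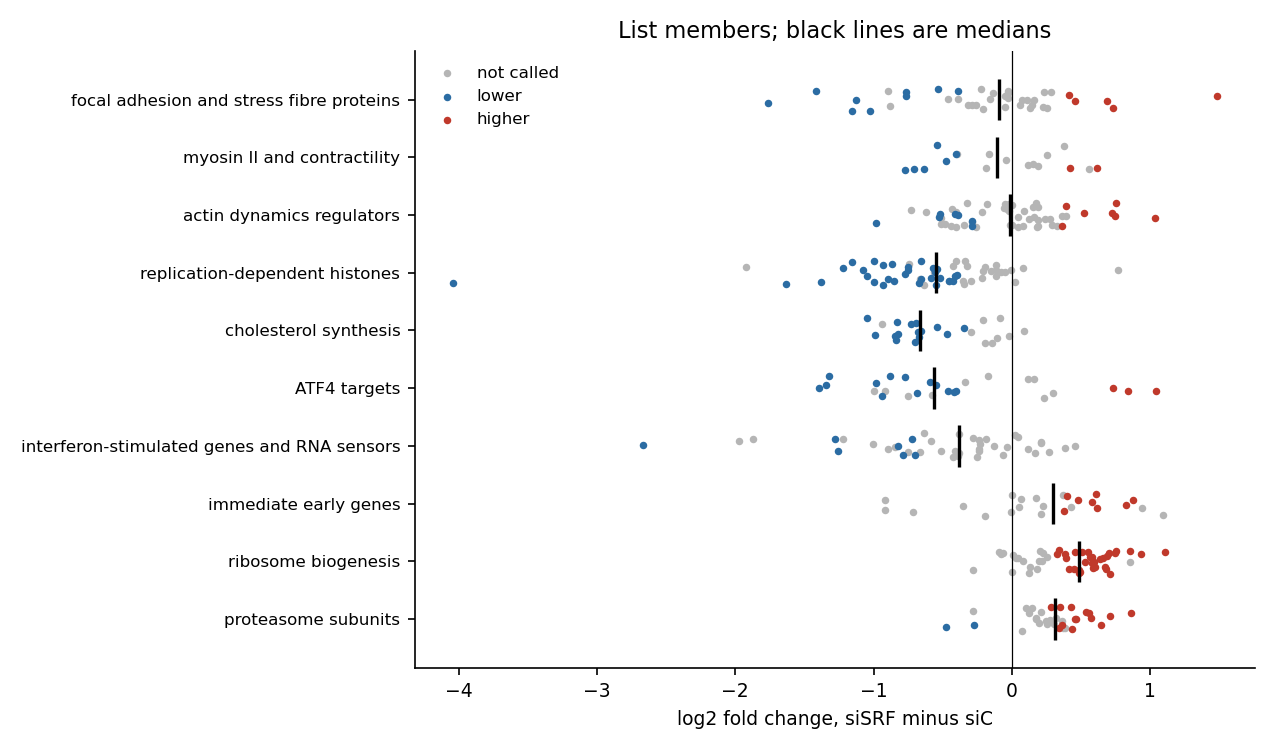
Log2 fold change (siSRF minus siC) of each tested member of 10 gene lists, coloured by call (blue lower, red higher, grey not called), with the list median as a black line. Medians lie at -0.66 for cholesterol synthesis, -0.56 for ATF4 targets, -0.55 for histones and 0.49 for ribosome biogenesis.

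Ribosome biogenesis showed the opposite pattern. Of 50 genes that process rRNA or assemble subunits, 31 were higher and none was lower, with a median log2 fold change of 0.49 that ran from 0.44 to 0.50 over the alternatives. NIP7, which acts in subunit maturation, was at 25.2, 24.4 and 23.2 FPKM in siC and 52.6, 51.3 and 52.9 FPKM in siSRF (log2 fold change 1.10, standard error 0.04, limma adjusted p = 0.0001). LYAR was at 8.03, 8.12 and 8.76 FPKM in siC and 15.4, 17.3 and 15.3 FPKM in siSRF (log2 fold change 0.94, standard error 0.07, limma adjusted p = 0.00059). Neither gene had overlapping groups. The GTPase GNL2 (0.85) and the helicases DDX18 (0.75) and DDX21 (0.75) were further higher members. Removal of GC content and length left 30 members higher. With 1 library left out, the counts were 9 to 26 higher for ribosome biogenesis. Leaving out single libraries ended the call in at least 1 of 6 fits for GNL2, DDX18 and DDX21.

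Proteasome subunits leaned upward, with 14 of 34 higher and 2 lower (median 0.31). PSMD12, a lid subunit, was at 17.1, 17.2 and 16.5 FPKM in siC and 28.5, 26.6 and 28.02 FPKM in siSRF (log2 fold change 0.71, standard error 0.04, limma adjusted p = 0.00042). The core subunit PSMA2 (0.86) and the ATPases PSMC6 (0.65), PSMC5 (0.57) and PSMC2 (0.56) were higher, and the catalytic subunit PSMB5 (-0.48) and PSMD7 (-0.27) were lower. The cytosolic ribosomal proteins did not share a direction, with 4 lower (4.76%) and 9 higher (10.7%) of 84 and a median of 0.02. Among them RPL10A (log2 fold change -0.65) and RPL3 (-0.43) were lower and RPS27L (0.79) and RPL26L1 (0.69), both relatives of standard subunits, were higher. Many processed pseudogenes derive from these genes, so reads may be split between copies. Of 50 spliceosome genes, 1 was lower and 6 were higher (12%, against 11.1% of protein-coding genes), among them SF3B6 (0.68) and SRSF9 (0.51). Nuclear-encoded respiratory chain subunits were near the background, with 6 lower and 4 higher of 77. COX8A stood out at 226, 255 and 249 FPKM in siC and 101, 111 and 115 FPKM in siSRF (log2 fold change -1.16, standard error 0.07, limma adjusted p = 0.00035), and UQCRC1 (-0.68) was lower too. Counts in the fits without 1 library were 0 to 1 lower and 2 to 10 higher for proteasome subunits, 0 to 3 lower and 0 to 3 higher for cytosolic ribosomal proteins, 0 to 1 lower and 2 to 4 higher for core spliceosome, 2 to 7 lower and 0 to 2 higher for nuclear-encoded respiratory chain subunits. At least 1 of the 6 fits without a single library gave an adjusted p above 0.01 for PSMA2, PSMC6, PSMC5, PSMC2, PSMB5, PSMD7, RPL10A, RPL3, RPS27L and RPL26L1.

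Lysosomal genes called lower and higher numbered 12 against 5 of 61 (median -0.16). NPC2 was at 8.04, 10.1 and 6.59 FPKM in siC and 2.04, 2.23 and 1.87 FPKM in siSRF (log2 fold change -1.94, standard error 0.17, limma adjusted p = 0.00087). NAGLU, an enzyme of heparan sulfate breakdown like HGSNAT, was at 8.57, 8.08 and 8.65 FPKM in siC and 3.31, 3.47 and 3.702 FPKM in siSRF (log2 fold change -1.25, standard error 0.08, limma adjusted p = 0.00037). The hydrolases GUSB (-1.01) and ARSA (-1.01) and the membrane protein LAMP1 (-0.83) fell, and the protease CTSK (0.95), the sulfatase IDS (0.59), PPT1 (0.34) and the proton pump subunits ATP6V1G1 (0.50) and ATP6V1B2 (0.41) rose. Among 36 autophagy genes, 4 were lower and 7 higher. ATG2A (-0.77), WIPI2 (-0.68), ATG9A (-0.44) and the receptor SQSTM1 (-0.42) were lower, and RB1CC1 (0.72), ATG4C (0.84), ATG4A (0.66), ATG3 (0.70) and ATG12 (0.47) higher. Leaving out 1 library gave 4 to 9 lower and 0 to 3 higher for lysosome, 2 to 3 lower and 1 to 3 higher for autophagy. The counts with GC content and gene length removed were 12 lower and 2 higher for lysosome. Calls of NPC2, ARSA, LAMP1, CTSK, IDS, PPT1, ATP6V1G1, ATP6V1B2, ATG9A, SQSTM1, ATG4C, ATG4A, ATG3 and ATG12 did not hold in all 6 fits that left out a single library. With GC content and gene length removed, ARSA, PPT1, ATP6V1G1, ATP6V1B2, ATG9A, ATG4C and ATG12 no longer passed.

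Solute carriers are membrane transporters of nutrients and ions, with 28 of 216 lower (12.96%) and 14 higher (6.48%, median -0.07). The shares over protein-coding genes were 8.67% and 11.1%. The glycine transporter SLC6A9 was at 1.497, 1.28 and 1.23 FPKM in siC and 0.0815, 0.128 and 0.158 FPKM in siSRF (log2 fold change -2.70, standard error 0.29, limma adjusted p = 0.00164) and the neutral amino acid transporter SLC1A4 at 4.74, 4.37 and 5.4 FPKM in siC and 1.41, 1.61 and 1.54 FPKM in siSRF (log2 fold change -1.60, standard error 0.12, limma adjusted p = 0.00062). The nucleoside carrier SLC29A2 (-1.38) and the sugar carrier SLC2A8 (-1.33) fell. The zinc exporters SLC30A1 (0.91) and SLC30A6 (0.88) and the carnitine carrier SLC25A20 (0.82) rose. Of 29 ABC transporters, 3 were lower (10.3%), led by ABCC3 (-1.76), and the nucleotide exporter ABCC4 (0.88) was the member called higher. In retinoic acid metabolism, the reductase DHRS3 was at 3.99, 2.86 and 3.96 FPKM in siC and 0.508, 0.578 and 0.402 FPKM in siSRF (log2 fold change -2.63, standard error 0.21, limma adjusted p = 0.00073) and the dehydrogenase RDH10 (0.80), which acts in the opposite direction, was higher, with the other 11 of 13 genes not called. The fits that each lacked 1 library gave 13 to 20 lower and 5 to 11 higher for solute carriers, 0 to 1 lower and 1 higher for ABC transporters. Removal of GC content and gene length gave 3 lower and 3 higher for ABC transporters. In 1 or more of the 6 fits without a library, the call was lost for SLC6A9, SLC29A2, SLC2A8, SLC30A1, ABCC3 and RDH10.

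Among 23 cytokine and NF-kB response genes, 2 were lower and 6 higher (median 0.42). CXCL5, an attractant of neutrophils, was at 94.2, 79.2 and 96.8 FPKM in siC and 276, 264 and 267 FPKM in siSRF (log2 fold change 1.58, standard error 0.08, limma adjusted p = 0.00024). IL24 was at 7.04, 6.098 and 5.799 FPKM in siC and 18.4, 16.7 and 19.3 FPKM in siSRF (log2 fold change 1.51, standard error 0.09, limma adjusted p = 0.00039), and the inhibitor of apoptosis BIRC3 at 3.34, 2.96 and 3.51 FPKM in siC and 11.7, 10.5 and 11.9 FPKM in siSRF (log2 fold change 1.77, standard error 0.09, limma adjusted p = 0.00027). CXCL3 (1.74) and IL11 were higher as well, whereas IL1A fell with 1.78, 1.73 and 1.89 FPKM in siC and 0.3299, 0.258 and 0.255 FPKM in siSRF (log2 fold change -2.32, standard error 0.22, limma adjusted p = 0.00109). Interferon-stimulated genes moved the other way, with 7 of 42 lower and none higher (median -0.39). GBP1, a guanylate-binding protein, was at 1.21, 1.15 and 1.08 FPKM in siC and 0.112, 0.132 and 0.0543 FPKM in siSRF (log2 fold change -2.66, standard error 0.31, limma adjusted p = 0.00223), and OAS3 (-1.28), SAMD9L (-1.26), IFI44 (-0.83) and LGALS3BP (-0.79) were lower. Of 20 genes of class I antigen presentation, HLA-C was called lower (-0.80) and none higher (median -0.25). The lower share was 5%, against 8.67% of protein-coding genes. Reads may be shared among the closely related class I genes. Fits lacking any 1 library called 1 to 2 lower and 4 higher for cytokines and NF-kB response, 1 to 3 lower for interferon-stimulated genes and RNA sensors. The counts with GC content and gene length removed were 1 lower and 7 higher for cytokines and NF-kB response. The calls of CXCL3, GBP1, OAS3, SAMD9L, IFI44, LGALS3BP and HLA-C were lost in at least 1 of 6 fits without a single library. After removal of GC content and gene length no call remained for HLA-C.

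In the TGF-beta, activin and BMP pathway, 3 of 42 genes were lower (7.14%) and 4 higher (9.52%). Both shares were below those over protein-coding genes, 8.67% and 11.1%. The ligand BMP6 was at 1.74, 2.54 and 2.83 FPKM in siC and 6.96, 7.89 and 6.099 FPKM in siSRF (log2 fold change 1.54, standard error 0.20, limma adjusted p = 0.00304), and the ubiquitin ligase SMURF2 (0.74), SMAD5 (0.59) and SKIL (0.54) were higher, while the latent binding proteins LTBP3 (-0.95) and LTBP4 (-0.68) and the activin antagonist FST (-0.52) were lower. In the WNT pathway, 5 of 27 were lower and 2 higher (median -0.17). SFRP1, a secreted antagonist, was at 193, 198 and 219 FPKM in siC and 123, 119 and 111 FPKM in siSRF (log2 fold change -0.79, standard error 0.06, limma adjusted p = 0.00074). The receptors FZD1 (-0.88), FZD8 (-0.66) and LRP5 (-0.79) and the kinase GSK3B (-0.49) were lower, and the antagonist DKK1 (0.51) and the scaffold APC (0.58) were higher. In the NOTCH pathway, the proteases ADAM17 (0.49) and ADAM10 (0.32) were the members called higher of 21 and none was lower. The higher share was 9.52%, against 11.1% of protein-coding genes. Counts in the fits without 1 library were 0 to 2 lower and 2 to 3 higher for TGF-beta, activin and BMP pathway, 0 to 3 lower and 0 to 1 higher for WNT pathway. Among the called genes named here, the adjusted p rose above 0.01 without a single library, in at least 1 of 6 such fits, for BMP6, SKIL, LTBP3, LTBP4, FST, SFRP1, FZD1, FZD8, LRP5, GSK3B, DKK1, APC, ADAM17 and ADAM10. Removing GC content and gene length ended the call of SKIL, LTBP4, LRP5, ADAM17 and ADAM10.

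Guidance cues, cell surface and filament families gave isolated changes, which are not read as results about the families. The shares over protein-coding genes were 8.67% lower and 11.1% higher. Of 22 semaphorins, plexins and neuropilins, 3 were lower and 3 higher (13.6% in each direction). SEMA3C was at 6.96, 6.48 and 6.68 FPKM in siC and 27.1, 26.4 and 27.8 FPKM in siSRF (log2 fold change 1.999, standard error 0.05, limma adjusted p = 3.6e-05) and the plexin PLXNA4, a semaphorin receptor, at 13.02, 14.5 and 12.2 FPKM in siC and 4.57, 4.42 and 4.61 FPKM in siSRF (log2 fold change -1.52, standard error 0.08, limma adjusted p = 0.00025). Among 14 ephrins and EPH receptors, EFNB2 (-1.19) and EFNA4 (-0.73) were lower (14.3%) and EPHA4 was higher (7.14%). The tight junction gene CLDN12 was at 6.63, 6.59 and 7.34 FPKM in siC and 16.5, 16.97 and 17.9 FPKM in siSRF (log2 fold change 1.31, standard error 0.07, limma adjusted p = 0.00023), and CLDN11 (-0.67) was lower, of 8 claudins tested. Each direction held 12.5% of the claudins. Of 10 tubulins, TUBA1A (-0.95) and TUBB4B (-0.55) were lower (20%) and none higher. Among 10 keratins, KRT80 (-0.87) was lower (10%) and KRT7 and KRT18 were higher (20%). Of 35 kinesins, KIF21B (-1.06) and KIF20A were lower (5.71%) and KIF2A (0.59) higher (2.86%). Of 29 protocadherins, PCDHGC3 (-0.50) was lower and PCDH15 (0.81) higher (3.45% in each direction). Leaving out 1 library gave 1 lower and 1 higher for semaphorins and receptors. Leaving out single libraries ended the call in at least 1 of 6 fits for EFNB2, EFNA4, CLDN11, TUBB4B, KIF21B, KIF2A, PCDHGC3 and PCDH15. With GC content and gene length removed, EFNA4, KIF21B, KIF2A and PCDHGC3 no longer passed.

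Families of transcription factors stayed near the shares over protein-coding genes, 8.67% lower and 11.1% higher, or below them. Their called members are single genes and not a result about the families. Of 380 zinc finger genes with a ZNF symbol, 4 were lower (1.05%) and 17 higher (4.47%), led by ZNF362 (-2.01) and ZNF778 (1.39). Of 32 HOX genes, HOXA5 (-1.12) was lower (3.1% of the family) and HOXB2 (1.33) and HOXD8 (0.73) were higher (6.25%). Of 30 FOX genes, FOXD1 was at 110.2, 123 and 120.3 FPKM in siC and 66.2, 67.9 and 65.4 FPKM in siSRF (log2 fold change -0.82, standard error 0.05, limma adjusted p = 0.0004). FOXK1 (-0.58) was the other lower member, and FOXN2 (0.75), FOXO3 (0.49) and FOXJ3 (0.26) were higher. The shares of FOX genes were 6.67% lower and 10% higher. The fits that each lacked 1 library gave 0 to 2 lower and 2 to 9 higher for C2H2 zinc finger ZNF genes. At least 1 of the 6 fits without a single library gave an adjusted p above 0.01 for ZNF362, HOXA5, HOXB2, HOXD8, FOXN2, FOXO3 and FOXJ3. After removal of GC content and gene length no call remained for FOXN2 and FOXJ3.

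Genes of other biotypes made up 9476 of those tested, with 94 called lower (0.99%) and 125 higher (1.32%). Of these 219, 85 had fewer than 10 reads per library on average. Of 1549 lincRNA genes, 28 were lower (1.81%) and 24 higher (1.55%). LINC00707 was at 6.71, 5.99 and 6.67 FPKM in siC and 26.02, 26.4 and 24.9 FPKM in siSRF (log2 fold change 1.98, standard error 0.06, limma adjusted p = 6.1e-05). Of 1639 antisense genes, 12 were lower (0.73%) and 16 higher (0.98%), including TMEM108-AS1 (4.57) and LNCSRLR (2.76). ITGB2-AS1 fell (-1.15), as did ITGB2 on the opposite strand (-0.80), and since the library kit keeps strand but the counting setting is not given in the sources used here, reads of such pairs cannot be assigned with certainty. Among 287 small nucleolar and Cajal body RNAs, 1 was lower (0.35%) and 9 were higher (3.14%), and 4 of those called had fewer than 10 reads per library on average. SNORA5C was at 33.2, 42.97 and 55.5 FPKM in siC and 102, 107 and 117 FPKM in siSRF (log2 fold change 1.34, standard error 0.18, limma adjusted p = 0.00357). The host genes of these RNAs overlap them. Of 2301 processed pseudogenes, 15 were lower (0.65%) and 27 higher (1.17%), and of 451 transcribed pseudogenes 6 (1.33%) and 5 (1.11%). All are uncertain where reads are shared with the parent gene. Several of the largest fitted changes in these biotypes were in snRNA and miRNA genes with few reads. RNU7-77P, a U7 pseudogene, was at 10.1, 2.45 and 2.304 FPKM in siC and 0, 0 and 0 FPKM in siSRF, and no fold is given for it. With 1 library left out, the counts were 8 to 15 lower and 4 to 14 higher for all lincRNA genes, 3 to 10 lower and 3 to 12 higher for all antisense genes, 0 to 3 lower and 3 to 10 higher for small nucleolar and Cajal body RNAs, 0 to 14 lower and 4 to 16 higher for processed pseudogenes. The counts with GC content and gene length removed were 2 lower and 9 higher for small nucleolar and Cajal body RNAs. Calls of ITGB2-AS1, ITGB2, SNORA5C and RNU7-77P did not hold in all 6 fits that left out a single library.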

How the data were processed

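Total RNA of ES-2 cells was depleted of rRNA and sequenced as stranded libraries. The authors clipped reads with cutadapt 1.14, mapped them with HISAT2 2.1.0 to hg38, handled alignments with SAMtools 1.5, counted them with featureCounts 1.5.3 on Ensembl genes and scaled the counts with edgeR 3.18.1 to the FPKM values they deposited, per the methods and the submitters' processing notes. Deposited log2 fold changes, p-values and false discovery rates were not used. FPKM values corresponded to whole reads in 100% of cases (tolerance 0.01 reads).

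The genes, filtered at a mean of 0.1 FPKM, were compared on log2(FPKM + 0.1), 3 siC against 3 siSRF, with limma 3.58.1 (trended empirical Bayes, R 4.3.3), two-sided, Benjamini-Hochberg adjusted over 21857 genes, called at 0.01. The step was tried on simulated counts with the same spread for all genes, 2-fold changes in genes of more reads, and no trend along GC content. Those settings do not cover smaller changes, genes of few reads or the trend along GC content in these data. Gene positions are GRCh38. GC content was that of the longest GENCODE transcript (98.9% of genes).

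Members and the 46 gene lists and 19 families were chosen with earlier results of these data known. Named genes were SRF, VCL and, in each direction, the 10 protein-coding genes (5 FPKM or more in the higher group) and 5 of other biotypes (1 FPKM or more) with the largest called change and no overlap, the 5 largest called differences in FPKM, and up to 5 called members of each list. Further list members, among them FLNA, SVIL, MYC and several cholesterol genes, were added after their values were seen. Alternatives covered pseudocount, filter, scaling, test, threshold, GC content and length, replicate block and leaving out libraries. A minimum of 10 reads was added after seeing the data. RefSeq promoters were matched by symbol or synonym and chromosome. Some genes and 2 lists are not reported here.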

Additional observations from a re-analysis of the deposited data

How the results depend on the processing

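With 6 libraries, the number of calls depended on how the spread was estimated. The 1167 lower and 1498 higher genes became 2343 and 2780 when limma-voom was run on reads recovered from FPKM, 524 and 420 without a mean-variance trend, 2306 and 2899 at an adjusted p of at most 0.05, and 312 and 203 when a 2-fold change was also required. Without 1 library, 328 to 576 genes were lower and 345 to 939 higher, the fewest without siSRF replicate 2 and the most without siC replicate 3. No gene was called in the opposite direction under any of the alternatives run. SRF and VCL passed under all of them, with SRF between -3.29 and -3.15 and VCL between -1.79 and -1.73 (log2) without 1 library. Of 396 called named genes, 134 passed in all 6 fits without a library and 90 in none, 325 passed with GC content and gene length removed, and 378 passed by limma-voom. The share of lower genes with a CArG box was 10.4% instead of 2.37% when 1 mismatch was allowed. Genes of few reads are imprecise, and 87 called genes had under 10 reads per library on average.

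The replicate numbers are shared by both groups, but same-numbered libraries did not deviate together (correlations -0.021, -0.0019 and 0.018 over genes), so the numbers were not taken as pairs. A replicate block gave 244 lower and 257 higher genes, with SRF and VCL still called at a limma adjusted p of 0.006.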
